A study of Mus musculus with 9 samples.

Results

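The ribosome biogenesis and nucleolar genes examined here were 40 genes chosen by symbol, and all 40 were found among the 18325 genes with values and among the 14108 genes tested. The rule picks genes by name and uses no measured value, but the choice was made with earlier results of these data known. RNA-seq of sorted lung neutrophils gave 9 libraries in 3 groups of 3, all from BALB/c female mice. Ly6Ghi and Ly6Glow were CD45+ neutrophils with high and low surface Ly6g from macrometastatic lung (the MACRO stage), taken after 4T1-LM3 mammary tumor cells had been placed in the orthotopic fat pad. NL was CD45+ Ly6g-high neutrophils from normal lung. There was no Ly6g-low group from normal lung, so that comparisons with NL differ in the tumor, and for Ly6Glow in the gate as well. The labels call each replicate a biosample and do not say whether it was a single mouse or a pool, so p-values measure the spread between these libraries, which may be technical. The normal-lung assignment rests on the titles and treatment fields, since the description field of those libraries names only the Ly6g-high group.

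Ribosome biogenesis begins in the nucleolus, where RNA polymerase I transcribes the precursor of ribosomal RNA. Small nucleolar ribonucleoproteins (snoRNPs) modify this precursor, and assembly factors cut and fold it into the small and the large ribosomal subunit. The transcription factor MYC is known to activate many of these genes by binding the E-box CACGTG with its partner MAX, while proteins of the MXD family bind MAX and repress such genes. Ribosome production is high in proliferating myeloid precursors and is known to decline as neutrophils mature.

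Promoter windows from RefSeq (build GRCm38.p6, 250 bases before to 50 after the start) were at hand for 34 of the 40 genes. CACGTG, which reads the same on both strands, was in the window of 7 of them (20.6%), against 11.2% of the 11218 tested genes with a window. CCGGAAG, searched on both strands, was in 10 (29.4%, against 18.4%), and GCGCATGC, also on both strands, was in 0 (against 5.42%). The stretches around the 7 E-boxes are shown because this is the motif of MYC, itself among the 40 genes. They read 5′ to 3′ on the gene's strand in lower case, with the E-box in capitals, and all but that of *Nop2* lay within the first 50 transcribed bases.
Utp20 (chr10:88826765-88826789, minus strand): cggcactaactaCACGTGaggaaaa
Wdr43 (chr17:71616220-71616249, plus strand): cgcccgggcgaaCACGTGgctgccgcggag
Ltv1 (chr10:13193092-13193121, minus strand): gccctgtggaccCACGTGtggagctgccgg
Tsr1 (chr11:74898092-74898121, plus strand): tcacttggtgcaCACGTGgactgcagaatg
Nop2 (chr6:125131811-125131840, plus strand): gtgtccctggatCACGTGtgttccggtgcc
Pes1 (chr11:3963965-3963994, plus strand): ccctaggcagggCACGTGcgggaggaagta
Mdn1 (chr4:32657145-32657168, plus strand): gaattccttcacCACGTGtgtgtc

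The libraries held 15267177 to 17841807 estimated counts, and these totals did not order the groups as the 40 genes do. TMM factors, which correct a library's size for its composition, ran from 0.803 in Ly6Glow to 1.32 in NL. NL replicate 2 stood apart from the other NL libraries (chi-square per degree of freedom of 5.30 and 4.05 over genes, against 1.49 between NL replicates 1 and 3), and without it the number of the 40 genes called lower was still 28 in Ly6Ghi over NL and 33 in Ly6Glow over NL. All 40 genes were detected in all 9 libraries, with at least 72 counts in NL, 25 in Ly6Ghi and 7 in Ly6Glow. Their median coefficient of variation was 5.51%, 6.34% and 9.14% in these groups.

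Most of the 40 genes were highest in NL, intermediate in Ly6Ghi and lowest in Ly6Glow. This order of the group means held for 34 of 40 (85%), against 30.7% of all tested genes. The libraries of the 3 groups were fully apart in that order for 28 of 40, against 14.8% of all tested genes. Summed over the 40 genes, the normalised read count was 989 to 1021 CPM in the NL libraries, where CPM are read counts scaled to a common library size, with library sizes corrected by edgeR's TMM factors. It was 643 to 650 CPM in Ly6Ghi and 511 to 523 CPM in Ly6Glow, with no overlap between groups. As a share of all counts without that correction, the 40 genes took 0.128% to 0.135% in NL, 0.0608% to 0.0617% in Ly6Ghi and 0.0412% to 0.0421% in Ly6Glow. In bulk samples, fewer cells that express a gene and less RNA of it per cell cannot be told apart.

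**Figure D1:**
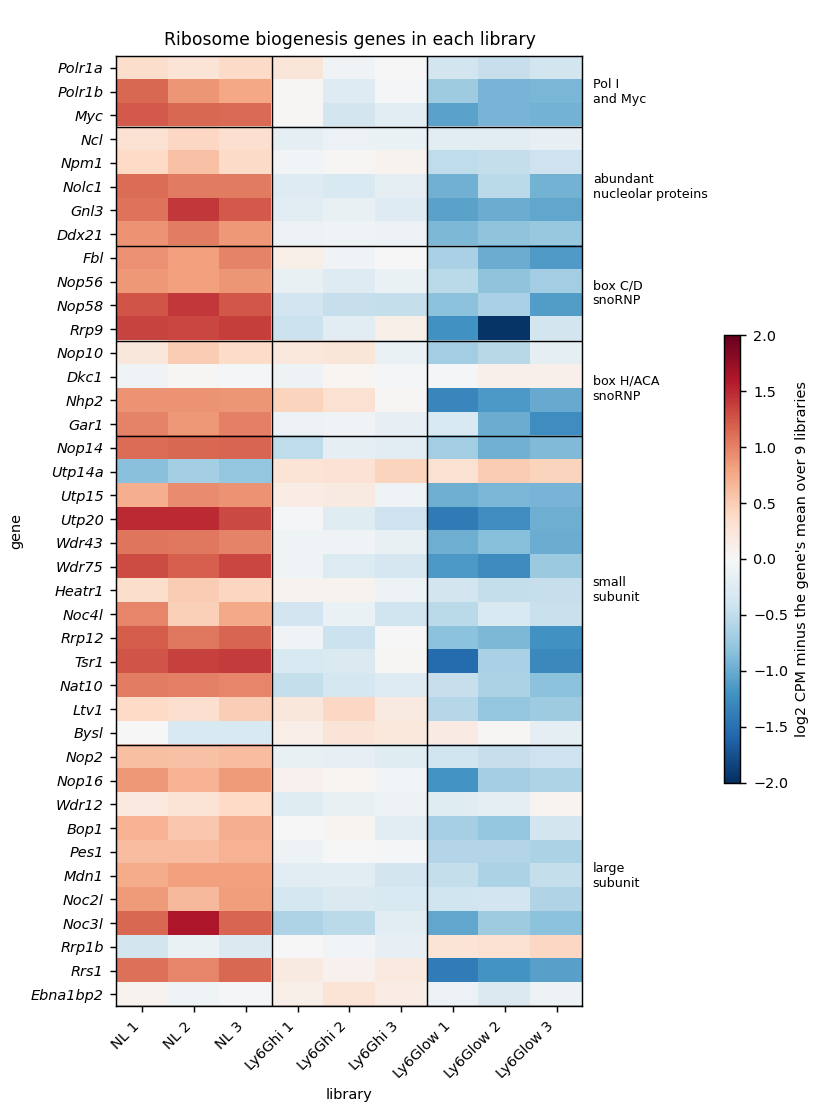
Level of each of the 40 genes in each of the 9 libraries (columns, by group), as log2 CPM minus the gene's mean over the 9 libraries (color scale, ending at 2 in either direction), grouped by role (right). Most genes run from red in NL to blue in Ly6Glow, while *Utp14a* and *Rrp1b* run the other way (*Rrp1b* not so on FPKM) and *Dkc1* stays pale throughout.

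A gene was called when edgeR's quasi-likelihood test gave a Benjamini-Hochberg adjusted p of at most 0.05 over all tested genes and an absolute log2 fold change above 0.58. Between Ly6Glow and Ly6Ghi, 17 of the 40 were called lower in Ly6Glow, against 15.9% of all tested genes, and 0 were called higher, against 9.29%. With the unadjusted p and the same size threshold, with DESeq2 and with limma on FPKM, 0 were called higher as well, while by adjusted p without a size threshold 30 were lower and 1 (*Rrp1b*) was higher. The Ly6Glow libraries lay wholly below the Ly6Ghi libraries for 31 of 40 genes, against 33.1% of all tested genes. The median log2 fold change of the 40 was -0.55, and that of all tested genes was -0.04.

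For Ly6Ghi over NL, 28 of the 40 were called lower (36.6% of all tested genes were), and 1, *Utp14a*, was called higher (26.3% of all tested genes were). The Ly6Ghi libraries lay wholly below NL for 33 of 40, against 45% of all tested genes. The median of the 40 was -0.98 beside -0.09 for all tested genes.

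Against NL, Ly6Glow had 33 of the 40 called lower (40.8% of all tested genes) and 2, *Utp14a* and *Rrp1b*, called higher (28.7% of all tested genes). The libraries were wholly below NL for 36 of 40 (47.5% of all tested genes), and the median was -1.62 beside -0.16 for all tested genes. Both NL comparisons share the NL libraries, and both Ly6Ghi comparisons share the Ly6Ghi libraries, so the 3 sets of values are not independent. The authors' FPKM (fragments scaled to transcript length and to library size) were tested with limma as log2(FPKM + 1). There 16 of the 40 genes were called lower in Ly6Glow over Ly6Ghi, 33 in Ly6Ghi over NL and 36 in Ly6Glow over NL. The count called higher in Ly6Glow over NL was 0. Of all 18317 genes in that test, 1926, 5162 and 6473 were called lower and 317, 1436 and 1128 higher in the same order of comparisons. In Ly6Glow over Ly6Ghi the use of FPKM exchanged genes among the 40. On log2(FPKM + 1) 6 lost the call (*Polr1b*, *Rrp9*, *Gar1*, *Utp20*, *Wdr75* and *Rrp12*, all called again on log2(FPKM + 0.1)) and 5 gained it (*Polr1a*, *Npm1*, *Nop56*, *Nop10* and *Pes1*). Against NL, 5 gained the call of lower in Ly6Ghi (*Polr1a*, *Ncl*, *Npm1*, *Nop10* and *Heatr1*) and 3 in Ly6Glow (*Ncl*, *Wdr12* and *Ebna1bp2*).

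**Figure D2:**
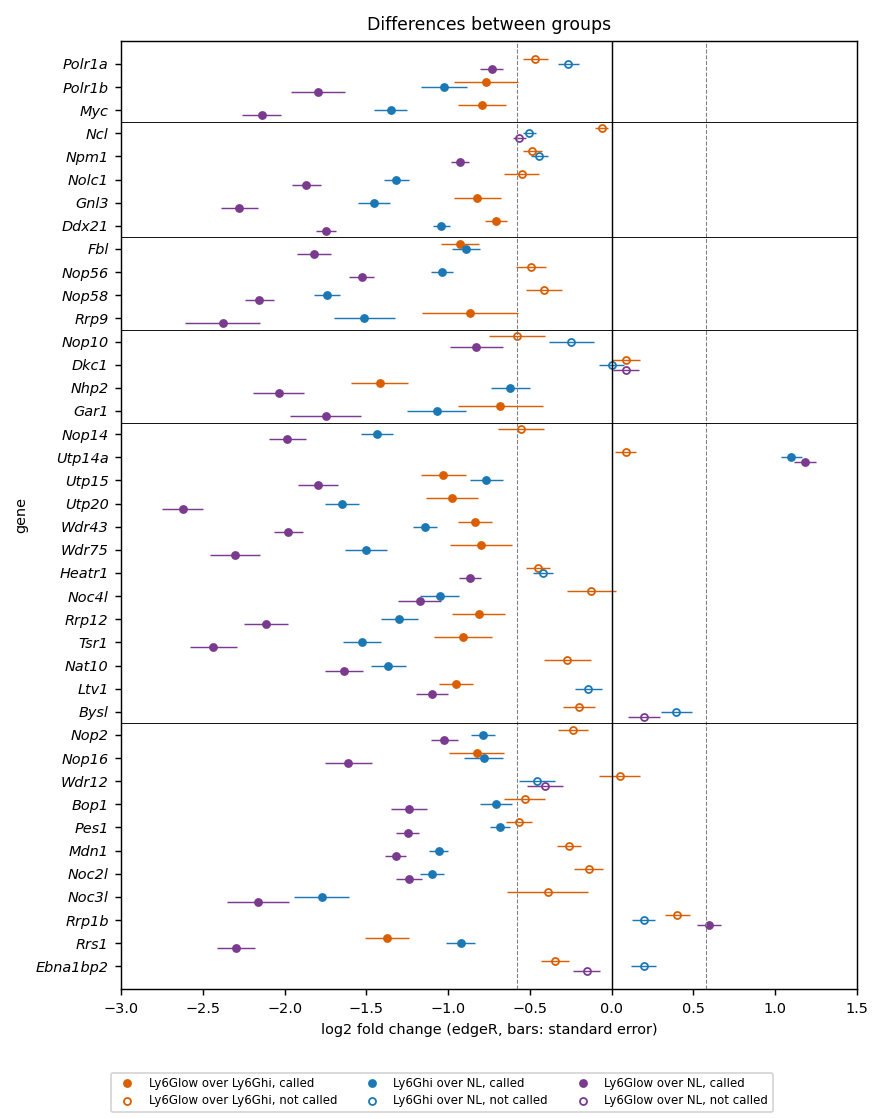
Log2 fold change of each gene in the 3 comparisons (horizontal axis, bars are standard errors of the edgeR fit), in the same order of roles. Filled points were called and open points were not, dashed lines mark a log2 fold change of 0.58 in either direction, and most filled points lie left of 0, with *Utp14a* and *Rrp1b* to the right (*Rrp1b* lies left of 0 against NL on FPKM).

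RNA polymerase I and MYC stand at the start of the pathway. *Polr1a* encodes the largest subunit of RNA polymerase I, and its level was 44.4, 42.4 and 45.4 CPM in the NL libraries, 41.4, 33.4 and 35.2 CPM in Ly6Ghi and 27.2, 25.4 and 27.0 CPM in Ly6Glow. The groups did not overlap, but the log2 fold changes of -0.47 ± 0.07 (SE) in Ly6Glow over Ly6Ghi and -0.27 ± 0.06 in Ly6Ghi over NL were below the threshold in size, and the difference of -0.73 ± 0.07 in Ly6Glow over NL was called (edgeR, adjusted p = 2.78e-09). On log2(FPKM + 1) both smaller differences were called as well, at -0.60 and -0.65. *Polr1b*, the second-largest subunit, was called lower in all 3 comparisons, at -0.77 ± 0.20, -1.03 ± 0.14 and -1.80 ± 0.17 on the log2 scale, but in Ly6Glow over Ly6Ghi not on log2(FPKM + 1) (-0.38). The ratio of *Polr1b* to *Polr1a* CPM was 0.151 ± 0.0214 (SD, n = 3) in NL, 0.0894 ± 0.0064 in Ly6Ghi and 0.0722 ± 0.00498 in Ly6Glow.

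*Myc* (chr15:61985391-61990374, plus strand, mm10) had 14.4, 13.6 and 13.5 CPM in the NL libraries, 6.21, 4.78 and 5.26 CPM in Ly6Ghi and 2.92, 3.24 and 3.20 CPM in Ly6Glow. No library of one group reached the range of another. It fell by 1.35 on the log2 scale (SE 0.10, edgeR adjusted p = 3.53e-11) in Ly6Ghi over NL and by 0.79 (SE 0.15, adjusted p = 8.84e-05) in Ly6Glow over Ly6Ghi. Its mean in Ly6Glow was 3.12 ± 0.171 CPM (SD, n = 3), against 13.8 ± 0.523 CPM in NL.

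The other genes of the MYC network were read from a list of 13. In Ly6Glow over Ly6Ghi, 2 of them were called higher (*Mga* and *Mxd1*) and 1 lower (*Mxd3*), and in Ly6Glow over NL 7 were called higher and 2 (*Mycn* and *Mycl*) lower. In Ly6Ghi over NL, 6 were called higher and 2 lower. In each group, 2 of the 13 genes averaged under 1 CPM. All tested genes were called higher at 9.29%, 28.7% and 26.3% and lower at 15.9%, 40.8% and 36.6% in these 3 comparisons. With limma on log2(FPKM + 1) fewer of the 13 were called higher, namely 0, 3 and 1 in Ly6Glow over Ly6Ghi, Ly6Ghi over NL and Ly6Glow over NL, and 2, 3 and 3 were called lower. Among all 18317 genes there, 317, 1436 and 1128 were called higher and 1926, 5162 and 6473 lower. *Mxd1*, which encodes a MAX-binding repressor, was at 2130 ± 44.5 CPM in NL, 3340 ± 11.3 CPM in Ly6Ghi and 5148 ± 27.0 CPM in Ly6Glow (SD, n = 3). These levels give log2 fold changes of 0.65 ± 0.03 in Ly6Ghi over NL and 0.62 ± 0.03 in Ly6Glow over Ly6Ghi. *Max* rose from 117 ± 3.01 CPM in NL to 275 ± 3.33 in Ly6Ghi and was at 352 ± 2.93 in Ly6Glow. In CPM, *Mxd1* thus rose across the same 3 groups in which *Myc* fell. The size of this rise depended on the scaling, since on log2(FPKM + 1) its differences were 0.18, 0.39 and 0.57 in Ly6Ghi over NL, Ly6Glow over Ly6Ghi and Ly6Glow over NL, positive in each but all under the threshold. *Max* was still called higher on FPKM in Ly6Ghi over NL (0.79) and in Ly6Glow over NL (0.91). *Mga*, a further MAX-binding gene, had log2 fold changes of 0.63 in Ly6Glow over Ly6Ghi and 0.59 in Ly6Glow over NL, and on FPKM these were 0.34 and -0.10, so that the latter changed sign.

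**Figure D3:**
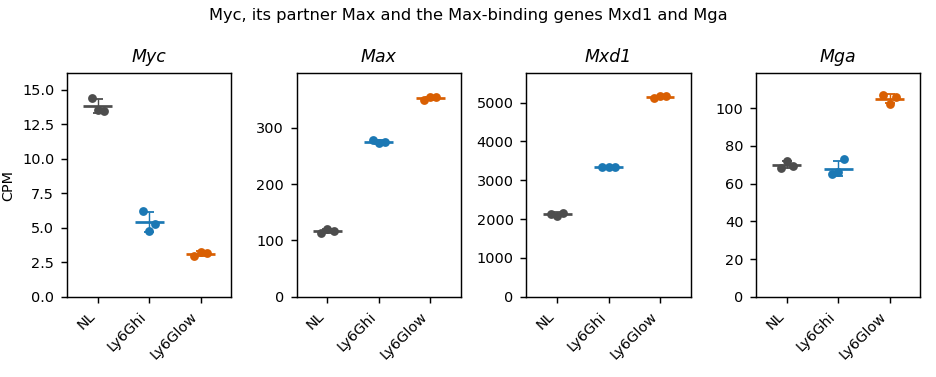
CPM (vertical axes, from 0) of *Myc*, *Max*, *Mxd1* and *Mga* in each library (points) with the mean and SD of each group (line and bar). *Myc* steps down from NL through Ly6Ghi to Ly6Glow, while *Max* and *Mxd1* step up, and *Mga* is highest in Ly6Glow, though not above NL on FPKM.

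The remaining RNA polymerase I genes were read from a list of 13. In Ly6Glow over Ly6Ghi 1 was called lower (*Polr1e*) and 0 higher, against 15.9% and 9.29% of all tested genes. In Ly6Ghi over NL 2 were called lower and 2 higher, against 36.6% and 26.3%. In Ly6Glow over NL 4 were called lower and 1 higher, against 40.8% and 28.7%. On FPKM 0 were called higher in any comparison, and 1, 3 and 6 lower. The 1 called lower in Ly6Glow over Ly6Ghi on FPKM was *Taf1b* (-0.60), a gene of the promoter selectivity factor, and not *Polr1e*, which was at -0.33 there. The largest decrease was that of *Rrn3*, the initiation factor that recruits RNA polymerase I, with 17.0 ± 1.40 CPM in NL, 7.25 ± 0.554 in Ly6Ghi and 4.89 ± 0.256 in Ly6Glow. It was called lower in both NL comparisons with edgeR (-1.23 ± 0.09 and -1.80 ± 0.11) and on FPKM (-1.31 and -1.78). *Ttf1*, the gene of the transcription termination factor, was at 15.4 ± 1.22 CPM in NL, 29.3 ± 1.21 in Ly6Ghi and 37.3 ± 0.399 in Ly6Glow. It was called higher in both NL comparisons with edgeR but not on FPKM, where its differences were 0.40 and 0.50.

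The 5 genes of abundant nucleolar proteins had medians of -0.55, -1.04 and -1.75 in Ly6Glow over Ly6Ghi, Ly6Ghi over NL and Ly6Glow over NL, and *Ncl* and *Npm1* had the smallest changes among them. *Npm1*, encoding the nucleolar chaperone nucleophosmin, had the highest FPKM of the 40 genes in every group (98.4 in NL, 52.3 in Ly6Ghi and 31.7 in Ly6Glow). Its CPM was 96.6, 111 and 96.3 in NL, 71.2, 74.9 and 77.1 in Ly6Ghi and 51.6, 52.8 and 55.0 in Ly6Glow, with no overlap. Its log2 fold changes were -0.49 ± 0.06 in Ly6Glow over Ly6Ghi and -0.44 ± 0.05 in Ly6Ghi over NL, both with small adjusted p but not called, and -0.93 ± 0.06 in Ly6Glow over NL, which was called. On log2(FPKM + 1) the first pair was called too, at -0.70 and -0.90. *Ncl*, encoding the RNA-binding protein nucleolin, had 165, 178 and 169 CPM in NL, 117, 124 and 122 CPM in Ly6Ghi and 114, 114 and 119 CPM in Ly6Glow. Its Ly6Ghi and Ly6Glow libraries overlapped, with a log2 fold change of -0.06 ± 0.04 (edgeR, adjusted p = 0.226), while both groups were below NL by an amount under the threshold (-0.50 and -0.56, the latter -0.59 and called without NL replicate 1). Both were called lower with other settings, at -0.70 and -0.75 with upper-quartile factors, -0.68 and -0.75 with at least 10 counts in every library, and -0.91 and -1.20 on log2(FPKM + 1).

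The other 3 nucleolar genes of this kind moved further. *Gnl3*, which encodes nucleostemin, was called lower in all 3 comparisons and was at 18.2 ± 2.07 CPM in NL, 6.62 ± 0.268 in Ly6Ghi and 3.74 ± 0.0917 in Ly6Glow. *Ddx21*, the gene of an RNA helicase, was also called lower in all 3, with a log2 fold change of -0.71 ± 0.07 in Ly6Glow over Ly6Ghi. *Nolc1*, encoding a snoRNP chaperone, was called in both NL comparisons (-1.32 ± 0.08 and -1.87 ± 0.09), while its -0.55 ± 0.11 in Ly6Glow over Ly6Ghi fell just short of the threshold in size and passed it without Ly6Ghi replicate 2 (-0.58) or Ly6Glow replicate 2 (-0.71).

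Box C/D snoRNPs, which methylate ribosomal RNA, contain fibrillarin (*Fbl*), NOP56 and NOP58, and *Rrp9* encodes a protein of the related U3 particle. All 4 genes were called lower in both NL comparisons, against 36.6% (Ly6Ghi) and 40.8% (Ly6Glow) of all tested genes. In Ly6Glow over Ly6Ghi 2 of the 4 were called lower, against 15.9%. *Fbl*, the methyltransferase, was at 21.8, 20.3 and 22.8 CPM in NL, 12.5, 11.0 and 11.5 CPM in Ly6Ghi and 7.39, 5.79 and 5.26 CPM in Ly6Glow. Its steps were of like size, -0.89 ± 0.08 from NL to Ly6Ghi and -0.93 ± 0.12 from Ly6Ghi to Ly6Glow. *Nop56* had 27.0, 26.1 and 27.3 CPM in NL, 13.3, 12.4 and 13.4 CPM in Ly6Ghi and 10.2, 8.50 and 9.15 CPM in Ly6Glow. Most of its difference was thus between NL and Ly6Ghi (-1.04 ± 0.07), and the -0.49 ± 0.09 in Ly6Glow over Ly6Ghi was not called, though it was on log2(FPKM + 1) (-0.62).

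*Nop58* showed the same form more strongly, at 36.4, 40.8 and 36.1 CPM in NL, 11.7, 11.2 and 11.0 CPM in Ly6Ghi and 8.69, 9.71 and 7.01 CPM in Ly6Glow. Its log2 fold change of -1.74 ± 0.08 in Ly6Ghi over NL was among the 5 largest decreases of the 40 genes, and the -0.41 ± 0.11 in Ly6Glow over Ly6Ghi was under the threshold, except on log2(FPKM + 0.1) (-0.63). The ratio of *Nop58* to *Fbl* CPM was 1.76 ± 0.228 in NL, 0.970 ± 0.0407 in Ly6Ghi and 1.39 ± 0.255 in Ly6Glow (SD, n = 3). *Rrp9* had 5.25, 5.20 and 5.36 CPM in NL, 1.54, 1.77 and 2.23 CPM in Ly6Ghi and 0.893, 0.527 and 1.60 CPM in Ly6Glow. Its Ly6Glow libraries were spread widely, with as few as 7 counts in a library, and overlapped Ly6Ghi. Its call in Ly6Glow over Ly6Ghi (-0.87 ± 0.29, edgeR adjusted p = 0.0154) was lost without Ly6Ghi replicate 3 (adjusted p = 0.0707) and without Ly6Glow replicate 1 (0.0535) or replicate 2 (0.117) and on log2(FPKM + 1) (-0.51), and its calls against NL had adjusted p of 1.71e-07 and 2.98e-09.

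Box H/ACA snoRNPs, which convert uridine to pseudouridine in ribosomal RNA, have 4 core proteins, and their genes did not move together. *Dkc1*, encoding the pseudouridine synthase dyskerin, had 12.2, 13.0 and 12.6 CPM in NL, 11.9, 13.2 and 12.6 CPM in Ly6Ghi and 12.6, 13.7 and 13.7 CPM in Ly6Glow. The groups overlapped, and its log2 fold changes of 0.09 ± 0.08 in Ly6Glow over Ly6Ghi and -0.00065 ± 0.08 in Ly6Ghi over NL were among the smallest of the 40 genes. On log2(FPKM + 1) *Dkc1* was lower in Ly6Glow than in NL by 0.52, so that its direction against NL depended on the scaling.

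*Nhp2*, encoding an RNA-binding core protein, had 7.50, 7.44 and 7.39 CPM in NL, 5.47, 4.96 and 4.09 CPM in Ly6Ghi and 1.62, 1.81 and 1.98 CPM in Ly6Glow. Its fall of 1.42 (SE 0.17, edgeR adjusted p = 4.18e-07) in Ly6Glow over Ly6Ghi was the largest of the 40 in that comparison. Its call in Ly6Ghi over NL (-0.62 ± 0.12) was lost without Ly6Ghi replicate 3, where it was -0.50. *Gar1*, a further core protein, was called lower in all 3 comparisons, though its call in Ly6Glow over Ly6Ghi (-0.68 ± 0.26, edgeR adjusted p = 0.0305) was lost with DESeq2 (adjusted p = 0.142) and without Ly6Ghi replicate 1 (0.0563) or 2 (0.0694) or Ly6Glow replicate 2 (0.102) or 3 (0.15). *Nop10*, the smallest of the 4, was called with edgeR in Ly6Glow over NL (-0.83 ± 0.16), and its -0.58 ± 0.17 in Ly6Glow over Ly6Ghi lay at the threshold of size. It was called there without Ly6Ghi replicate 3 (-0.69), without Ly6Glow replicate 3 (-0.74) and without any 1 of the NL libraries (-0.58), and on log2(FPKM + 1) both there (-0.68) and in Ly6Ghi over NL (-0.64).

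A ratio between partners within a library cancels library size when groups are compared. The *Nhp2* to *Dkc1* ratio of CPM was 0.616, 0.574 and 0.588 in NL, 0.461, 0.377 and 0.324 in Ly6Ghi and 0.129, 0.132 and 0.144 in Ly6Glow, with no overlap. The *Gar1* to *Dkc1* ratio was 0.278 ± 0.022 in NL, 0.132 ± 0.00657 in Ly6Ghi and 0.0792 ± 0.0324 in Ly6Glow. For *Nop10* to *Dkc1* it was 0.430 ± 0.0278, 0.363 ± 0.054 and 0.227 ± 0.0341. These ratios show unequal change among the 4 genes and not which of them was constant.

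**Figure D4:**
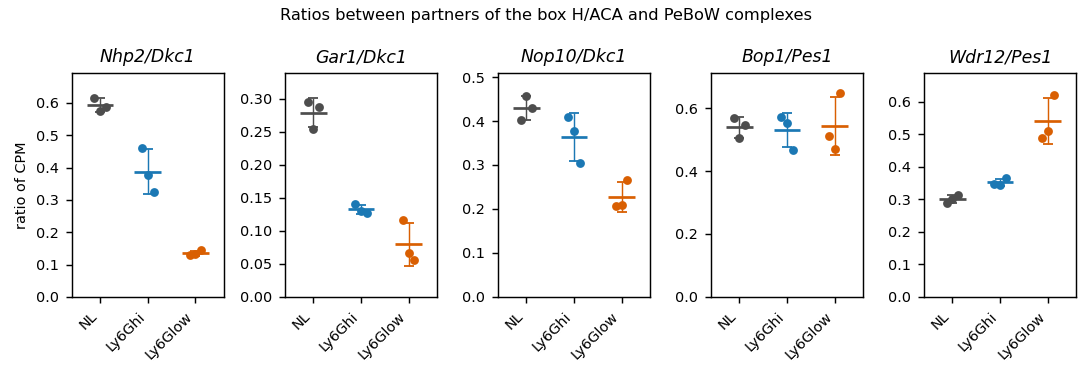
Ratio of CPM between genes of the box H/ACA complex (left 3 panels) and of the PeBoW complex (right 2 panels) in each library (points), with mean and SD by group (vertical axes from 0). The ratios to *Dkc1* step down towards Ly6Glow, *Bop1* to *Pes1* stays level and *Wdr12* to *Pes1* steps up in CPM. In mean FPKM, both *Wdr12* (1.11 in Ly6Ghi, 0.647 in Ly6Glow) and *Pes1* (5.56 and 3.19) fell between those groups.

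Factors of the small subunit made up 13 of the 40 genes. Of them, 7 were called lower and 0 higher in Ly6Glow over Ly6Ghi, against 15.9% and 9.29% of all tested genes. In Ly6Ghi over NL there were 9 lower and 1 higher, against 36.6% and 26.3%. In Ly6Glow over NL there were 11 lower and 1 higher, against 40.8% and 28.7%. The medians of the 13 were -0.80, -1.14 and -1.80 on the log2 scale. *Utp20*, a large scaffold of the pre-ribosome, had 19.0, 18.9 and 16.7 CPM in NL, 6.64, 5.67 and 5.08 CPM in Ly6Ghi and 2.52, 2.86 and 3.43 CPM in Ly6Glow. It was the most reduced of the 40 genes in Ly6Glow over NL, at -2.63 ± 0.13 or 6.17-fold lower (edgeR, adjusted p = 1.2e-14). Its call in Ly6Glow over Ly6Ghi (-0.98 ± 0.16) was lost on log2(FPKM + 1) (-0.36), where both groups were under 1 FPKM.

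*Tsr1*, a GTPase-like maturation factor, had 14.6, 15.8 and 16.2 CPM in NL, 4.98, 5.02 and 6.19 CPM in Ly6Ghi and 2.11, 3.91 and 2.52 CPM in Ly6Glow. *Wdr75*, a subunit of the complex that binds the 5′ end of the precursor (the t-UTP complex), had 8.89, 8.17 and 9.01 CPM in NL, 3.38, 2.95 and 2.85 CPM in Ly6Ghi and 1.62, 1.51 and 2.13 CPM in Ly6Glow. Both were called lower in all 3 comparisons with the groups fully apart, but *Wdr75* was not in Ly6Glow over Ly6Ghi on log2(FPKM + 1) (-0.47). *Utp15*, also of the t-UTP complex, had 11.0, 12.9 and 12.4 CPM in NL, 7.44, 7.62 and 6.31 CPM in Ly6Ghi and 3.41, 3.54 and 3.51 CPM in Ly6Glow, and *Wdr43*, of the same complex, was called lower in all 3 comparisons as well. *Heatr1*, the largest of these t-UTP members, moved less, with 33.5, 37.0 and 35.2 CPM in NL, 27.4, 27.3 and 24.2 CPM in Ly6Ghi and 20.1, 18.8 and 18.9 CPM in Ly6Glow. It was called with edgeR in Ly6Glow over NL (-0.87 ± 0.07). In Ly6Ghi over NL its -0.42 became -0.61 with upper-quartile factors, -0.59 with at least 10 counts in every library and -0.74 on log2(FPKM + 1), all called, and in Ly6Glow over Ly6Ghi it was called on log2(FPKM + 0.1) (-0.66).

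*Ltv1*, which helps export and mature the small subunit, was not called between NL and Ly6Ghi with edgeR, though it was on log2(FPKM + 0.1) (-0.61). It had 14.8, 14.2 and 15.8 CPM in NL and 13.0, 14.9 and 12.6 CPM in Ly6Ghi, which overlapped (-0.14 ± 0.08, edgeR adjusted p = 0.11), and 7.55, 6.55 and 6.86 CPM in Ly6Glow. The fall from Ly6Ghi to Ly6Glow was 0.95 on the log2 scale (SE 0.10, edgeR adjusted p = 6.62e-08). *Bysl*, encoding bystin, had 14.8, 11.9 and 12.0 CPM in NL, 16.2, 17.6 and 17.1 CPM in Ly6Ghi and 16.5, 15.0 and 13.0 CPM in Ly6Glow. It was not called in any comparison, its difference against NL was positive in CPM and negative on FPKM in both groups, and its exons overlap those of *Ccnd3* on the other strand by 361 bases.

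*Utp14a*, which activates a helicase of the early particle, went against the rest. It had 21.6, 23.9 and 22.5 CPM in NL, 46.2, 46.9 and 52.4 CPM in Ly6Ghi and 47.3, 54.6 and 52.4 CPM in Ly6Glow. Both tumor-bearing groups were above NL without overlap (1.10 ± 0.07 and 1.18 ± 0.07, edgeR adjusted p = 6.94e-13 and 2.39e-13) and overlapped each other. On log2(FPKM + 1) it remained called higher in Ly6Ghi over NL, but in Ly6Glow over NL its difference was 0.47, under the threshold, and in Ly6Glow over Ly6Ghi it was -0.14. Its exons share 473 bases with a non-coding gene on the other strand, *9530027J09Rik*, and the sources used here do not state whether reads were counted by strand.

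The remaining small subunit genes were *Nop14*, *Noc4l*, *Rrp12* and the RNA acetyltransferase *Nat10*. All 4 were called lower in both NL comparisons (-1.05 to -1.43 in Ly6Ghi over NL), and of them *Rrp12* alone was called in Ly6Glow over Ly6Ghi (-0.81 ± 0.16), and not on log2(FPKM + 1) (-0.44). *Nop14*, at -0.55 there, was called without Ly6Ghi replicate 1 (-0.65) or Ly6Glow replicate 1 (-0.63). *Noc4l* differed there by -0.12 ± 0.15 with overlapping libraries.

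Large subunit factors, 11 of the 40, had medians of -0.35, -0.78 and -1.24 in Ly6Glow over Ly6Ghi, Ly6Ghi over NL and Ly6Glow over NL. In Ly6Ghi over NL 8 were called lower and 0 higher, against 36.6% and 26.3% of all tested genes. In Ly6Glow over NL there were 8 lower and 1 higher, against 40.8% and 28.7%. In Ly6Glow over Ly6Ghi 2 were called lower and 0 higher, against 15.9% and 9.29%. Those 2 were *Rrs1* and *Nop16*. *Rrs1*, which brings 5S ribosomal RNA into the particle, had 15.2, 13.96 and 15.8 CPM in NL, 8.06, 7.56 and 8.11 CPM in Ly6Ghi and 2.68, 3.09 and 3.35 CPM in Ly6Glow. Its fall of 1.37 (SE 0.13, edgeR adjusted p = 1.12e-08) from Ly6Ghi to Ly6Glow exceeded the 0.92 (SE 0.09) by which it fell from NL to Ly6Ghi.

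*Noc3l*, a nucleolar assembly factor, had 6.29, 8.67 and 6.31 CPM in NL, 1.85, 1.95 and 2.41 CPM in Ly6Ghi and 1.38, 1.73 and 1.60 CPM in Ly6Glow. Its -1.77 ± 0.17 was the largest fall of the 40 in Ly6Ghi over NL, and its -0.39 ± 0.25 in Ly6Glow over Ly6Ghi was not called (edgeR adjusted p = 0.192). *Mdn1*, a giant ATPase that remodels the particle, *Noc2l* and the RNA methyltransferase *Nop2* had the same form, with -1.06, -1.10 and -0.79 in Ly6Ghi over NL and -0.26, -0.14 and -0.24 in Ly6Glow over Ly6Ghi. The exons of *Noc2l* overlap those of *Samd11* on the other strand by 598 bases.

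The PeBoW complex joins PES1, BOP1 and WDR12. *Pes1* had 26.4, 26.6 and 27.8 CPM in NL, 16.1, 17.3 and 17.0 CPM in Ly6Ghi and 11.5, 11.5 and 11.1 CPM in Ly6Glow. *Bop1* had 15.0, 13.4 and 15.2 CPM in NL, 9.17, 9.56 and 7.92 CPM in Ly6Ghi and 5.85, 5.42 and 7.17 CPM in Ly6Glow. The pair fell alike, by 0.68 and 0.71 from NL to Ly6Ghi, which were called, and by 0.56 and 0.53 from Ly6Ghi to Ly6Glow, which were not. Near the threshold of size, single libraries decided these last 2: *Pes1* was called without Ly6Ghi replicate 1 (-0.60) and on log2(FPKM + 1) (-0.65), and *Bop1* without Ly6Ghi replicate 3 (-0.61) or Ly6Glow replicate 3 (-0.66). *Wdr12* had 7.63, 8.03 and 8.70 CPM in NL, 5.60, 5.96 and 6.19 CPM in Ly6Ghi and 5.60, 5.87 and 6.86 CPM in Ly6Glow, with a log2 fold change of 0.05 ± 0.12 in Ly6Glow over Ly6Ghi that was -0.35 on log2(FPKM + 1). Against NL *Wdr12* was not called with edgeR and TMM factors (-0.46 and -0.41), but it was with upper-quartile factors (-0.65 and -0.60) and, for Ly6Glow, on log2(FPKM + 1) (-0.91). The *Wdr12* to *Pes1* ratio of CPM was 0.301 ± 0.0114 in NL, 0.353 ± 0.0107 in Ly6Ghi and 0.540 ± 0.0707 in Ly6Glow, and *Bop1* to *Pes1* was 0.539 ± 0.0332, 0.530 ± 0.0554 and 0.543 ± 0.0932. In FPKM, however, *Wdr12* was at 2.10 ± 0.178 in NL, 1.11 ± 0.203 in Ly6Ghi and 0.647 ± 0.0896 in Ly6Glow. The gene length implied by the ratio of its counts to its FPKM was 1.48 times as long in Ly6Glow as in Ly6Ghi, relative to the median gene. For the other 33 genes with at least 0.5 FPKM in every library that ratio differed less, and the next was *Nop16* with 1.18 times.

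*Rrp1b* and *Ebna1bp2* were the exceptions among large subunit factors. *Rrp1b*, which encodes a chromatin-bound nucleolar protein, had 16.9, 19.8 and 17.8 CPM in NL, 21.8, 21.0 and 19.5 CPM in Ly6Ghi and 26.3, 26.9 and 29.0 CPM in Ly6Glow. It was called higher in Ly6Glow over NL (0.60 ± 0.07, edgeR adjusted p = 1.17e-07), which lay close to the threshold, was not called without Ly6Glow replicate 3 (0.56) or NL replicate 1 (0.54) and turned to -0.08 on log2(FPKM + 1). *Ebna1bp2*, a further assembly factor, had 15.9, 14.1 and 14.7 CPM in NL, 16.2, 18.2 and 16.7 CPM in Ly6Ghi and 13.9, 12.3 and 14.03 CPM in Ly6Glow. It was called in no comparison with edgeR, but on log2(FPKM + 1) it was called lower in Ly6Glow over NL (-0.71), and in Ly6Ghi over NL its 0.20 ± 0.08 turned to -0.23 on log2(FPKM + 1).

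Other ribosome biogenesis genes, 124 in all, were written in 5 lists from general knowledge. In Ly6Ghi over NL their share called lower was near that of all tested genes with edgeR, but larger than it on FPKM. The FPKM test kept genes of low level, which the edgeR test filtered out, so the 2 backgrounds are unlike. Of the 124, 45 were called lower and 0 higher in Ly6Glow over Ly6Ghi (36.3% lower, against 15.9% of all tested genes, median -0.37), where the largest increase of any p was 0.576, and limma on log2(FPKM + 1) called 32 lower and 0 higher. In Ly6Ghi over NL 46 were called lower (37.1%, against 36.6% of all tested genes) and 14 higher (median -0.26). In Ly6Glow over NL 62 were called lower (50%, against 40.8%) and 13 higher (median -0.61). On FPKM the counts against NL were 62 lower and 3 higher in Ly6Ghi, and 82 lower and 2 higher in Ly6Glow. Of all 18317 genes in that test, 5162 were called lower and 1436 higher in Ly6Ghi over NL. In Ly6Glow over NL 6473 of them were called lower and 1128 higher. With at least 1 FPKM in 3 libraries, 4652 of 11820 genes were called lower in Ly6Ghi over NL, and 5845 in Ly6Glow over NL. The 124 genes were not counted in that filtered test. Among 40 further small subunit genes, the summed CPM was 509 to 515 in NL and 502 to 523 in Ly6Ghi, which overlapped, against 462 to 470 in Ly6Glow. Among 48 further large subunit genes, 22 were called lower and 0 higher in Ly6Glow over Ly6Ghi, with *Ppan* (-1.17) the most reduced, and 22 lower and 3 higher in Ly6Ghi over NL.

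The 7 genes for snoRNP assembly split. *Shq1*, the assembly chaperone of dyskerin, was called lower in all 3 comparisons and was at 2.83, 1.07 and 0.434 CPM on average in NL, Ly6Ghi and Ly6Glow. *Ruvbl2*, an ATPase with many other roles, was at 11.2, 22.2 and 33.1 CPM and was called higher in both NL comparisons with edgeR, and on FPKM in Ly6Glow over NL (0.68) but not in Ly6Ghi over NL (0.38). Of 16 genes of the RNA exosome, which trims the precursor, 7 were called lower and 0 higher in Ly6Glow over Ly6Ghi with edgeR, led by *Exosc6* (-1.43). Of all tested genes, 15.9% were called lower and 9.29% higher there. In Ly6Ghi over NL 4 of the 16 were called lower and 3 higher, against 36.6% and 26.3%. On log2(FPKM + 1) the counts were 5 lower and 0 higher, and 6 lower and 2 higher. Of all 18317 genes in that test, 1926 and 5162 were called lower and 317 and 1436 higher.

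A list of 13 genes for nucleolar stress and p53 had 12 tested. In Ly6Glow over Ly6Ghi, 2 were called higher, *Sesn2* (0.99) and the cell cycle inhibitor *Cdkn1a* (0.81), and 2 lower, the ribosomal protein genes *Rpl5* (-0.79) and *Rpl11* (-0.60). Of all tested genes, 9.29% were called higher and 15.9% lower there. On log2(FPKM + 1) *Sesn2* remained called (0.74) and *Cdkn1a* was at 0.57, under the threshold. In Ly6Ghi over NL 3 of the 12 were called higher and 1 lower with edgeR, against 26.3% and 36.6%. In Ly6Glow over NL 4 were called higher and 3 lower, against 28.7% and 40.8%.

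In the annotation of build mm10 (GENCODE vM21), 7 of the 40 genes (17.5%) held annotated snoRNA genes, against 1.79% of 13655 tested genes with a match. These were *Nop56* with 5 snoRNA genes, *Nop58* with 4, *Ncl*, *Wdr43* and *Gnl3* with 3 each, *Tsr1* with 2 and *Dkc1* with 1. They did not form a group by their values: in Ly6Glow over Ly6Ghi *Gnl3*, *Wdr43* and *Tsr1* were called lower, while *Nop56*, *Nop58*, *Ncl* and *Dkc1* were not called. The exons of *Tsr1* share 1240 bases with *Srr* on the other strand.

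Markers of cell types and of maturity moved with the groups, and their part in the differences above was not tested. The *Ly6g* transcript itself was at 374 ± 10.8 CPM in Ly6Ghi and 394 ± 9.32 CPM in Ly6Glow, which was not a called difference (edgeR adjusted p = 0.0577), and at 119 ± 1.40 CPM in NL. Mature neutrophil markers (12 genes) summed to 73139 to 75026 CPM in Ly6Ghi, 80387 to 82132 CPM in Ly6Glow and 19960 to 20202 CPM in NL. Neutrophil precursor markers summed to 30830 to 31299 CPM in Ly6Ghi, 9246 to 9512 CPM in Ly6Glow and 5615 to 5840 CPM in NL. They were called lower in Ly6Glow over Ly6Ghi for 12 of 12 genes, against 15.9% of all tested genes. Proliferation markers, 12 of 14 called lower in that comparison, summed to 666 to 672 CPM in Ly6Ghi, 178 to 187 CPM in Ly6Glow and 290 to 294 CPM in NL. By summed CPM, precursor and proliferation markers were highest in Ly6Ghi, and the 40 ribosome biogenesis genes were highest in NL. In Ly6Ghi over NL, 10 of 12 precursor markers were called higher and 1 lower, and 8 of 14 proliferation markers were called higher and 1 lower. Of all tested genes, 26.3% were called higher and 36.6% lower there. In Ly6Glow over NL 8 precursor markers were called higher and 3 lower, and 0 proliferation markers higher and 8 lower, against 28.7% and 40.8%. On log2(FPKM + 1) these counts were 2 higher and 4 lower, and 0 higher and 14 lower. Of all 18317 genes there, 1128 were called higher and 6473 lower.

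Markers of epithelial, endothelial and fibroblast cells, macrophages and T cells were higher in NL than in the other groups. Epithelial or tumor markers summed to 1075 to 1203 CPM in NL, 100.5 to 106 CPM in Ly6Ghi and 105 to 111 CPM in Ly6Glow, and *Krt5* was at 0 in the Ly6Ghi and Ly6Glow libraries. Endothelial markers were at 975 to 1047 CPM in NL, 144 to 148 CPM in Ly6Ghi and 177 to 184 CPM in Ly6Glow, and fibroblast markers at 541 to 573, 52.1 to 59.7 and 54.0 to 60.0 CPM. All of these markers were called lower in Ly6Ghi over NL (10 of 10 epithelial or tumor, 7 of 7 endothelial and 7 of 7 fibroblast markers). Of all tested genes, 36.6% were. In Ly6Glow over Ly6Ghi, 0 of 7 endothelial and 0 of 7 fibroblast markers were called lower with edgeR or on FPKM. Of the 10 epithelial or tumor markers 3 were called lower there with edgeR and 1 on FPKM. Of all tested genes, 15.9% were called lower there with edgeR, and on FPKM 1926 of 18317 were. Alveolar macrophage markers summed to 927 to 952 CPM in NL, 286 to 298 CPM in Ly6Ghi and 61.8 to 62.3 CPM in Ly6Glow. Of these 13 markers, 10 were called lower in Ly6Glow over Ly6Ghi, against 15.9% of all tested genes. Monocyte and macrophage markers summed to 868 to 929 CPM in NL, 696 to 706 CPM in Ly6Ghi and 701 to 728 CPM in Ly6Glow. T cell markers were at 101 to 107 CPM in NL, 55.2 to 57.9 CPM in Ly6Ghi and 43.3 to 44.0 CPM in Ly6Glow. Eosinophil, B cell, and basophil and mast cell markers were highest in Ly6Ghi. Eosinophil markers were called higher in Ly6Ghi over NL for 5 of 6 genes, against 26.3% of all tested genes. They summed to 110 to 118 CPM in Ly6Ghi, 36.2 to 37.9 CPM in Ly6Glow and 40.6 to 43.3 CPM in NL. B cell markers were at 49.2 to 50.4, 29.6 to 31.6 and 31.9 to 33.8 CPM in these groups, and basophil and mast cell markers at 43.1 to 45.04, 25.2 to 28.7 and 26.3 to 29.1 CPM. Dendritic cell markers were at 48.2 to 53.6 CPM in NL and at most 16.7 CPM in the other groups, NK cell markers at most 16.6 CPM and erythroid markers at most 24.4 CPM in any library.

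**Figure D5:**
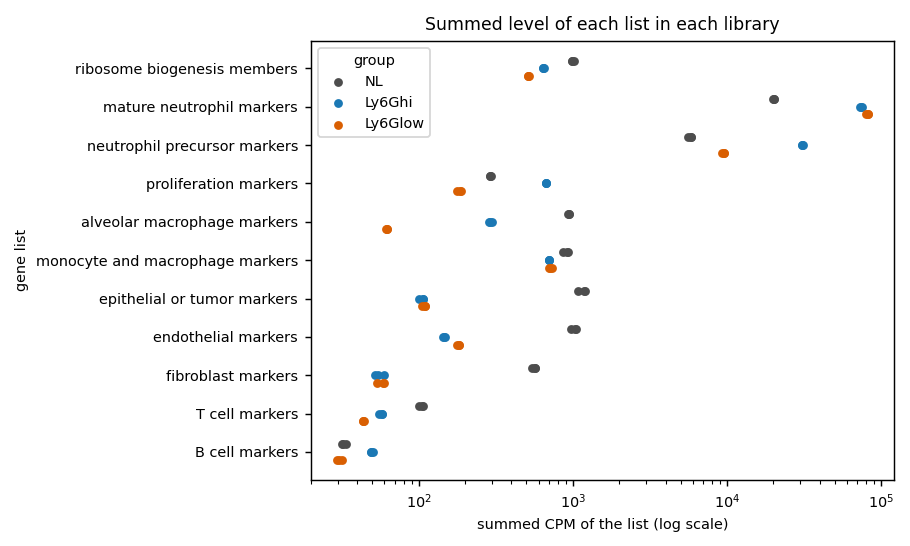
Summed CPM (horizontal axis, log scale) of the 40 ribosome biogenesis genes and of each marker list in each library (points, colored by group). Markers of epithelial, endothelial and fibroblast cells lie at 541 CPM or more in NL and at 184 CPM or less in both other groups, while precursor and proliferation markers are highest in Ly6Ghi.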

How the data were processed

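RNA-seq libraries of sorted lung neutrophils, 3 each of Ly6Ghi, Ly6Glow and NL, were made and sequenced by BGI. The authors deposited estimated counts per gene (37.9% of the values were whole numbers) and FPKM per gene, both on build mm10 per the labels; the aligner, the counter and whether reads were counted by strand are not given in the sources used here. Groups came from the titles and treatment fields.

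Counts were rounded. Of 22064 genes listed, 3739 were blank in value, and 14108 passed edgeR's filter on low counts. All 9 libraries entered 1 fit with TMM factors in edgeR 4.0.16 (R 4.3.3), and p-values of the quasi-likelihood test were adjusted across these genes after Benjamini-Hochberg. FPKM was tested with limma 3.58.1 on log2(FPKM + 1). Alternatives were DESeq2 1.42.0 and its size factors, upper-quartile factors, other filters, thresholds and pseudocounts, the 6 libraries of a comparison alone, a replicate block and leaving out each library. The FPKM test of the other gene lists was added after their counts had been examined. CPM ratios were taken within a library. The procedure was tested on simulated data.

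The 40 genes and the lists were chosen with earlier results of these data known. List symbols matched 326 of 343, 5 by an alias. The 14 snoRNA host genes listed had no matching symbol and could not be analysed. All 40 genes may be named. Library values were given for a fixed set, for the 5 called genes with the largest absolute change and the 2 genes with the smallest in each comparison, and for *Utp14a*, *Rrp1b*, *Wdr12* and other genes whose groups called for it. Of each other list at most the 2 largest increases and decreases in a comparison were named. Same-numbered libraries did not deviate together, so the numbers were not taken as pairs. No 2 libraries agreed within sampling noise. Promoter sequences were from RefSeq, and gene overlaps from GENCODE vM21. Depth limits precision to counting error plus the spread between 3 libraries.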

Additional observations from a re-analysis of the deposited data

How the results depend on the processing

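Over all alternatives, 2441 of 2637 fold changes of the 40 genes kept their direction and their side of the threshold, 42 changed direction, and 1 of 81 called values (*Rrp1b*, Ly6Glow over NL) did so. In Ly6Glow over Ly6Ghi, 1 gene was higher and 30 lower without a size threshold, 3 were lower at a log2 fold change above 1, and 28 were lower on log2(FPKM + 0.1), with a median of -0.76. In Ly6Ghi over NL, 4 were higher without a size threshold, and the median was -1.17 with upper-quartile factors, -1.10 with at least 10 counts in every library, -1.06 on log2(FPKM + 1) with or without a filter on FPKM, and -1.37 on log2(FPKM + 0.1). In Ly6Glow over NL, the median was -1.53 with DESeq2 size factors, -1.81 with upper-quartile factors, -1.54 with DESeq2, -1.79 with at least 10 counts and -2.25 on log2(FPKM + 0.1). There 1 gene was called higher with upper-quartile factors, at least 10 counts or a log2 fold change above 1, and 0 on FPKM. The cause of these shifts was not tested.

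Leaving out 1 library at a time gave 16 to 18, 27 to 28 and 33 to 34 genes lower in Ly6Glow over Ly6Ghi, Ly6Ghi over NL and Ly6Glow over NL, 0 to 0, 1 to 1 and 1 to 2 higher, and medians of -0.55 to -0.53, -0.98 to -0.91 and -1.65 to -1.56. With the replicate number as a block, 18, 28 and 33 were lower and 0, 1 and 2 higher. Same-numbered libraries correlated at -0.068 to 0.058, so this block shows no pairing.

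Directions changed as follows on the log2 scale, with log2(FPKM + 1), the same with the FPKM filter, and log2(FPKM + 0.1) unless named. In Ly6Glow over Ly6Ghi, *Ncl* was 0.0045 with DESeq2 size factors, *Dkc1* was -0.13, -0.13 and -0.16, *Utp14a* was -0.14, -0.14 and -0.15, and *Wdr12* was -0.35, -0.35 and -0.68 and ranged from -0.048 to 0.10 over left-out libraries. In Ly6Ghi over NL, *Bysl* was -0.051, -0.051 and -0.061, *Ebna1bp2* was -0.23, -0.23 and -0.27, and *Rrp1b* was -0.22, -0.22 and -0.26. *Dkc1* was there 0.024 with DESeq2 size factors, 0.029 with DESeq2, 0.020 with no filter, 0.0016 with 6 libraries and from -0.034 to 0.048 over left-out libraries. In Ly6Glow over NL, *Dkc1* was -0.10 with upper-quartile factors, -0.096 with at least 10 counts, and -0.52, -0.52 and -0.62, *Bysl* was -0.39, -0.39 and -0.49, and *Rrp1b* was -0.077, -0.077 and -0.090. The share of higher genes among all called genes fell from 36.8% to 12.6% on log2(FPKM + 0.1) in Ly6Glow over Ly6Ghi, from 41.8% to 19.3% in Ly6Ghi over NL and from 41.3% to 13.6% in Ly6Glow over NL at the lowest, and the median of the 40 genes minus that of all tested genes stayed between -1.73 and -0.32.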
